A study of Mus musculus with 2 samples.

Results

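The receptors for TGF-β, activins and bone morphogenetic proteins (BMPs) were examined in cultured osteoblasts from wild-type and Slc39a13-KO mice. They comprised 10 genes: the type I receptors Tgfbr1, Acvr1b, Bmpr1a, Bmpr1b and Acvr1, the type II receptors Tgfbr2, Bmpr2, Acvr2a and Acvr2b, and betaglycan, Tgfbr3. The genes were chosen by name, and every probe set that the platform annotation gave to 1 of these symbols alone was taken. Each probe set consists of several short oligonucleotides complementary to 1 transcript. This gave 30 probe sets for 10 genes, of 18193 genes that the array read in this way. A further probe set shared by Acvr2a and Orc4 was left out, with signals of 48.2 in the wild-type and 40.7 in the Slc39a13-KO array.

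Ligands of this family bind a complex of type I and type II receptors, which are both serine/threonine kinases. The type II receptor phosphorylates the type I receptor, which in turn phosphorylates Smad proteins that enter the nucleus and act on target genes. In bone, BMP receptors promote the commitment of mesenchymal cells to osteoblasts and chondrocytes, whereas TGF-β receptors act on matrix production and on the timing of differentiation. Betaglycan lacks a kinase and presents TGF-β to the type II receptor.

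The wild-type culture and the Slc39a13-KO culture were each hybridised to 1 array as total RNA labelled with biotin. Both were primary osteoblasts grown in serum-containing medium from enzyme digests of newborn calvaria, the bones of the skull vault. Slc39a13 encodes ZIP13, a zinc transporter, and in the KO mice a Neo cassette took the place of a block of its exons in all tissues. The KO mice carry this allele on both chromosomes. The sources used here give no strain, sex or number of pups for either culture, so strain, litter and the 2 culture dishes cannot be told apart from the genotype. No genotype was replicated, so nothing could be tested, and each difference below is one between 2 arrays.

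The values were linear signals from MAS5, an algorithm that summarises the probes of a set and scales each array to a common mean. A floor was set at the median of all signals, 85.1, and a probe set above the floor in at least 1 array was counted as measured. Log2 ratios are signed so that a positive value means a higher signal in Slc39a13-KO, and each gene has the mean of its measured probe sets. A signal given for a gene without a probe set name is the mean of its measured probe sets on the log scale. It includes values raised to the floor, as do the sums over lists. Where the signal of 1 array lay at or below the floor, the floor was used in its place and the fold is written as "at least". Calls of higher or lower required a mean difference of at least 2-fold and no disagreement in sign among the measured probe sets. By this rule 983 of 12269 measured genes (8.01%) were higher and 727 (5.93%) were lower in Slc39a13-KO. The median log2 ratio of all measured genes was 0.11.

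The Slc39a13 probe set read 1309 in wild-type and 90.4, close to the floor, in Slc39a13-KO, 14.5-fold lower. Whether it lies within the removed exons was not established here. The poly-A control RNAs were lower in the Slc39a13-KO array in 24 of 24 probe sets, with a median log2 ratio of -1.02, and directions are therefore given relative to the bulk of genes. Of the osteoblast markers, Col1a2, a chain of type I collagen, read 28503 and 25943, and Sparc, the matrix protein osteonectin, read 40038 and 49640 in wild-type and Slc39a13-KO. The zinc-finger factor Sp7 read 94.8 and 153, close to the floor, and neither Ibsp nor Phex exceeded the floor. Col1a1, also a chain of type I collagen, read 12230 and 7655, 1.60-fold lower and not called. Its 2 probe sets had an SD of 1.02 on the log2 scale. Of 7 measured osteoblast markers 3 were called higher in Slc39a13-KO and 0 lower. These were Pth1r (5.20-fold), Dmp1 (at least 4.50-fold) and Alpl (at least 2.32-fold). The median log2 ratio was 0.70 for the osteoblast markers and 3.45 for the chondrocyte markers. Of 15 measured chondrocyte markers 14 were higher in Slc39a13-KO, and their summed signal was 8942 in the wild-type and 153150 in the Slc39a13-KO array. Of 11 smooth muscle and pericyte markers 7 were lower, with sums of 46522 and 17180. Such sums follow the brightest genes of a list, since signals of different probe sets have no common scale. They do not measure the amount of a cell type. In bulk cultures a change in the share of cells of a type and a change in RNA per cell cannot be told apart.

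Of the 10 receptor genes, 2 were called higher in Slc39a13-KO, Tgfbr2 and Tgfbr3, and 1 was called lower, Acvr2a. These counts stand beside background shares of 8.01% higher and 5.93% lower over all genes. The other 7 receptors were not called. With low signals raised to the floor, 6 of the 10 had ratios within 1.5-fold, as had 67.7% of all measured genes. For Acvr2b and Bmpr1b, among these 6, the floor makes the fold a lower bound, so their difference may be larger. The median log2 ratio of the receptors was 0.28. Their ratios ran from -1.74 for Acvr2a to 2.33 for Tgfbr2, a span of 4.07 on the log2 scale. Tgfbr2 stood at rank 158 from the highest of 12269 genes, Tgfbr3 at rank 397 from the highest, and Acvr2a at rank 266 from the lowest. All 10 genes were measured, by 22 of their 30 probe sets, of which 16 were above the floor in both arrays and 6 in 1 array. Among the 22 the signal was higher in Slc39a13-KO in 16 and lower in 6, without subtracting the median of all genes, 0.11. Tgfbr1 1420895_at (log2 ratio 0.07) and Bmpr2 1434310_at (0.01), among the 16, lay below that median. The share over all measured probe sets was not computed, so no direction is read from this count. Signals of different probe sets have no common scale, so the receptors are not ranked by level.

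**Figure D1:**
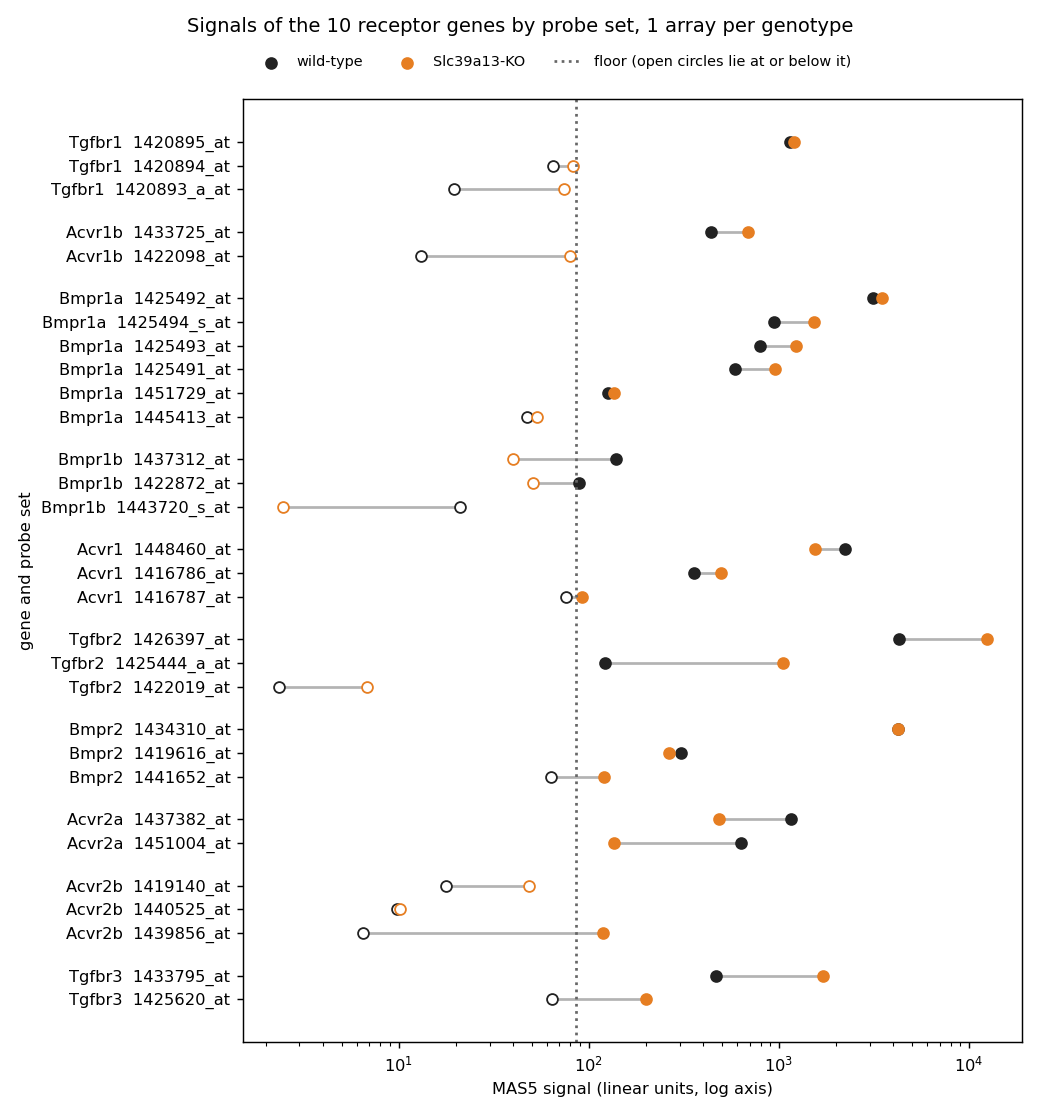
MAS5 signal on a log axis for each of the 30 receptor probe sets (rows, grouped by gene and role) in the wild-type array (black) and the Slc39a13-KO array (orange). Open circles lie below the floor of 85.1 (dotted line). The pairs of Tgfbr2, Tgfbr3 and Acvr2a that lie above the floor are widely separated, whereas the pairs of Tgfbr1 1420895_at and Bmpr2 1434310_at nearly coincide.

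The 2 called receptors with a RefSeq upstream sequence, Tgfbr2 and Acvr2a, are shown by the 250 bases before their start sites. With the processing used here they lay at opposite ends of the receptor ratios. Capitals mark the GC box GGGCGG, the CCAAT box and the TATA box, searched as TATAAA, on either strand, and each sequence is written 5′ to 3′ on the strand of its gene (RefSeq, GRCm38.p6). The first lies at chr9:116175364-116175613 on the minus strand and the second at chr2:48813859-48814108 on the plus strand.
Tgfbr2: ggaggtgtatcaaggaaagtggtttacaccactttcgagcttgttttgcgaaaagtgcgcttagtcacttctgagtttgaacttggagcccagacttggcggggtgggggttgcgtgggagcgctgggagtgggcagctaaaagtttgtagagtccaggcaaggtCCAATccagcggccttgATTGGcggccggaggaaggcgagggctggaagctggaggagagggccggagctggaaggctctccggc
Acvr2a: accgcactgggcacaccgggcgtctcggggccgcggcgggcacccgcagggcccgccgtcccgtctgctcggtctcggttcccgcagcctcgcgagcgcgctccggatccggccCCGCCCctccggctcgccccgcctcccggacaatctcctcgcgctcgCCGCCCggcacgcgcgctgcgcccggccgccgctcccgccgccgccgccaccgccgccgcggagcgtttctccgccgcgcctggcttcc
The Tgfbr2 window had a GC content of 58.4% and 12 CpG sites, held 2 CCAAT boxes with first bases at -85 and -68 from the start site, and had 0 GC boxes. The Acvr2a window had a GC content of 82.0%, 49 CpG sites and 2 GC boxes at -136 and -89, and had 0 CCAAT boxes. Both held 1 copy of GTCTG, a short Smad-binding sequence, at -160 in Tgfbr2 and at -188 in Acvr2a. None of the matched motifs overlapped in these 2 windows. Of 32851 upstream windows of the mouse annotation, 42.2% held GTCTG on either strand.

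Over the receptors, 12 upstream windows were found for 9 genes, with none for Tgfbr3. A GC box was in 7 of the 12 windows, against 32.7% of all windows. The CCAAT box was in 4 of 12, against 33.8%, the TATA box in 1 of 12, against 12.4%, and the GTCTG motif in 6 of 12, against 42.2%. The window with a TATA match belonged to Bmpr1b. A GC content of at least 60% was found in 7 of 12 receptor windows and in 27.9% of all windows. Windows of 1 gene can overlap, and a match is a description of the letters and not a binding site.

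Tgfbr2, the type II receptor that binds TGF-β, showed the highest ratio of the receptors with the processing used here. With only the brightest probe set of each gene Tgfbr3 was above it, 1.86 compared with 1.55 on the log2 scale. The same held with the floor at the 70th percentile, 1.86 for Tgfbr3 compared with 1.63 for Tgfbr2. The Tgfbr2 probe set 1426397_at read 4259 in wild-type and 12438.5 in Slc39a13-KO, 2.92-fold higher. Probe set 1425444_a_at read 121 and 1046, 8.65-fold higher. The third, 1422019_at, read 2.33 and 6.80, far below the floor in both arrays. The gene ratio was 2.33 ± 1.11 (log2, SD between 2 probe sets), or 5.03-fold. Both measured probe sets were thus higher in Slc39a13-KO, but they differed from each other by more than most genes did. Over 5700 genes with several measured probe sets, the median SD was 0.34 and 90% of SDs were at most 0.75, and such SDs hold only technical spread within the 2 arrays.

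Tgfbr3 encodes betaglycan, the co-receptor that binds TGF-β and inhibin. Probe set 1433795_at read 468 in wild-type and 1701 in Slc39a13-KO, 3.63-fold higher. Probe set 1425620_at read 63.8, below the floor, and 200.4, at least 2.36-fold higher. Both were higher in Slc39a13-KO, and the gene ratio was 1.55 ± 0.44 (log2, SD between 2 probe sets), at least 2.93-fold.

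Tgfbr1, also called ALK5, is the type I partner of Tgfbr2. Its 1 measured probe set, 1420895_at, read 1143 in wild-type and 1201 in Slc39a13-KO, so its log2 ratio was 0.07. The other probe sets, 1420893_a_at with 19.4 and 74.3 and 1420894_at with 64.8 and 82.7, never exceeded the floor. The receptor pair of TGF-β therefore differed in its ratios, by 2.26 on the log2 scale between Tgfbr2 and Tgfbr1. The Tgfbr1 ratio rested on a single probe set, so no spread can be given for it.

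Acvr1b, or ALK4, is the type I receptor for activins. Probe set 1433725_at read 439 in wild-type and 687 in Slc39a13-KO, 1.56-fold higher and below the 2-fold threshold. Its other probe set, 1422098_at, read 13.1 and 79.5 and was not measured.

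Acvr2a, a type II receptor that binds activins and several BMPs, was the receptor called lower. Probe set 1437382_at read 1156 in wild-type and 484 in Slc39a13-KO, 2.39-fold lower. Probe set 1451004_at read 634 and 136, 4.65-fold lower. All 4 signals were above the floor, and the gene ratio was -1.74 ± 0.68 (log2, SD between 2 probe sets), or 3.34-fold lower. Its paralog Acvr2b was close to the limit of measurement. Of its 3 probe sets only 1439856_at rose above the floor, reading 6.51 in wild-type and 118 in Slc39a13-KO, at least 1.39-fold higher. The others read 17.6 and 48.7 (1419140_at) and 9.78 and 10.1 (1440525_at), so the paralogs cannot be compared with similar precision.

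Bmpr2, the type II receptor specific to BMPs, was nearly equal between the arrays in its brightest probe set. That probe set, 1434310_at, read 4216 in wild-type and 4245 in Slc39a13-KO. Probe set 1419616_at read 305 and 265, a log2 ratio of -0.20, and 1441652_at read 63.0, below the floor, and 119, at least 1.40-fold higher. The signs were mixed, and the gene ratio was 0.10 ± 0.35 (log2, SD between 3 probe sets).

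Bmpr1a, or ALK3, is a type I receptor for BMPs that osteoblast precursors use. It had 5 measured probe sets, the most of the receptors, and all were higher in Slc39a13-KO. The signals were 944 and 1538 for 1425494_s_at, 590 and 953 for 1425491_at and 794 and 1232 for 1425493_at, with ratios between 0.63 and 0.70 on the log2 scale. The brightest, 1425492_at, read 3143 and 3484, a log2 ratio of 0.15, and the dimmest measured, 1451729_at, read 126 and 136, a log2 ratio of 0.11. The last, 1445413_at, read 47.1 and 53.4. The gene ratio was 0.46 ± 0.30 (log2, SD between 5 probe sets), 1.37-fold and not called.

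Bmpr1b, or ALK6, is a type I receptor linked to cartilage condensation and limb skeletal development. Its probe sets were dim, and in each the Slc39a13-KO signal was the lower. Probe set 1437312_at read 139 in wild-type and 40.1 in Slc39a13-KO, at least 1.63-fold lower. Probe set 1422872_at read 88.3 and 50.7, at least 1.04-fold lower, and 1443720_s_at read 21.0 and 2.45. With the floor in place of the low signals the gene was at least 1.30-fold lower and was not called. Unlike the chondrocyte markers, the receptor linked to cartilage was thus not higher in the Slc39a13-KO array.

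Acvr1, or ALK2, is a type I receptor for BMPs whose activating mutations cause bone formation in soft tissue. Probe set 1448460_at read 2215 in wild-type and 1545 in Slc39a13-KO, so its log2 ratio was -0.52. Probe set 1416786_at went the other way, with 358 and 493, a log2 ratio of 0.46. The third, 1416787_at, read 75.4 and 92.2, on either side of the floor. These probe sets disagreed in sign, and the gene ratio of 0.02 ± 0.50 (log2, SD between 3 probe sets) averages over that disagreement.

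**Figure D2:**
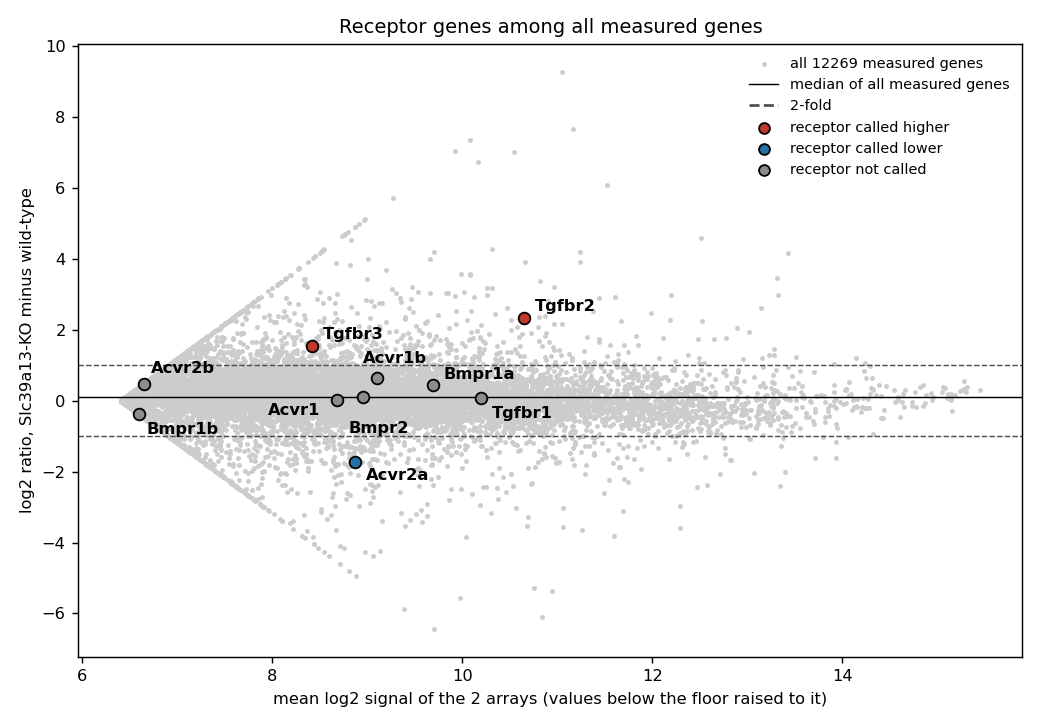
Log2 ratio (Slc39a13-KO minus wild-type) against the mean log2 signal of the 2 arrays for 12269 measured genes (grey) with the 10 receptors named, dashed lines at 2-fold and a solid line at the median of all genes (0.11). Tgfbr2 and Tgfbr3 (red) lie above and Acvr2a (blue) below the dashed lines, and the diagonal edges at the left hold genes bounded by the floor, among them Acvr2b and Bmpr1b.

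By role, the TGF-β and activin type I receptors had 0 of 2 called and a median log2 ratio of 0.36, and the BMP type I receptors had 0 of 3 called and a median of 0.02. The type II receptors had 1 of 4 higher and 1 of 4 lower. No type I receptor was therefore called, and the called genes were type II receptors and betaglycan, in numbers too few for any comparison between roles.

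Other scalings of the arrays kept the called receptors in part. With the arrays scaled to the same median or quantile-normalised, Tgfbr2 and Tgfbr3 were higher and Acvr2a lower, as above. When the poly-A controls set the scale, the median of all genes moved to 0.94 and 45.8% of all genes were called higher, so ratios were read relative to that median. On this scale Tgfbr2 stood 2.37 and Tgfbr3 1.34 above the median, while Acvr2a stood 1.66 below it. The absolute ratio of Acvr2a was -0.72 with this scaling and no longer reached 2-fold, whereas Bmpr1a and Acvr1b reached it. Tgfbr1 and Bmpr2, near 0 as reported, had ratios of -0.17 and -0.10 with median scaling and 0.58 and 0.93 with poly-A scaling, so no direction is given for them. The direction of Acvr1 likewise depended on the scaling and on the probe set.

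**Figure D3:**
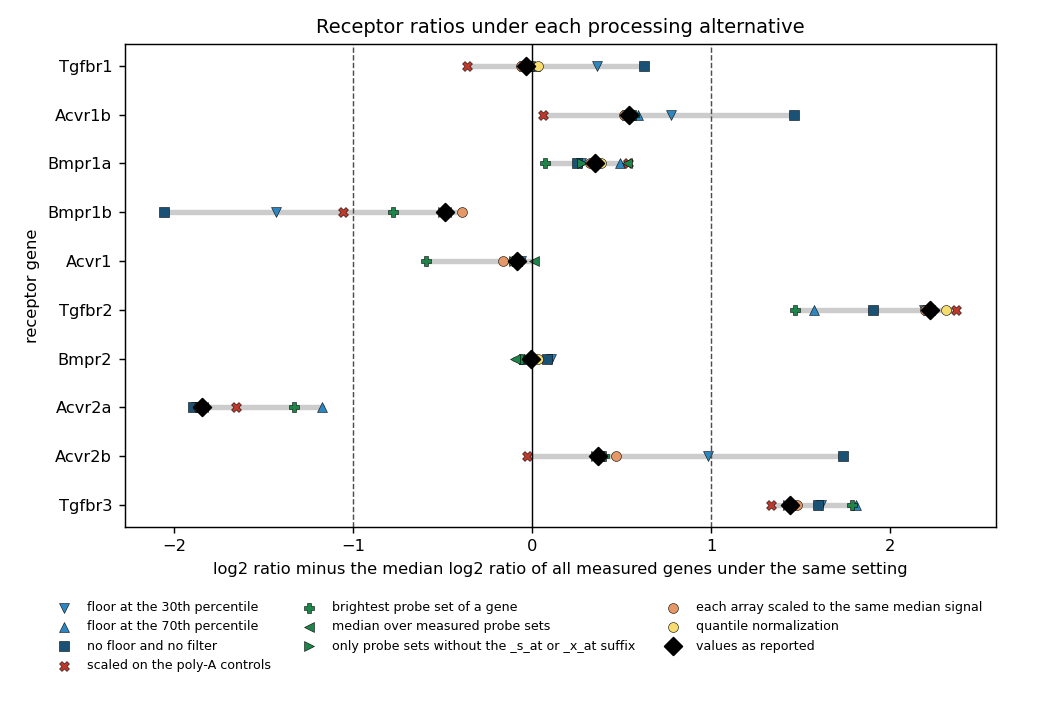
Log2 ratio of each receptor minus the median log2 ratio of all measured genes under the reported processing (black diamonds) and 9 alternatives (coloured symbols), with dashed lines at 2-fold. Tgfbr2 and Tgfbr3 stay above and Acvr2a below the lines throughout, whereas Bmpr1b, Acvr1b and Acvr2b pass them when the floor is removed, and Bmpr1b also with poly-A scaling and the 30th percentile floor.

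The genes around the receptors were read from lists of ligands, antagonists, Smads and regulators. Of 70 measured components other than the 10 receptors, 8 were higher and 14 lower in Slc39a13-KO, with a median log2 ratio of -0.08. Over all measured genes 8.01% were higher and 5.93% lower, and the counts of each list below stand beside these shares. With poly-A scaling the shares of all genes were 45.8% higher and 1.75% lower. Among 9 measured further receptors and co-receptors, 2 were higher and 1 lower. Bambi, a pseudoreceptor without a kinase that blocks type I receptors, read 372 in wild-type and 1496 in Slc39a13-KO, 4.02-fold higher. Rgma, a BMP co-receptor of the repulsive guidance family, read 173 and 573, 3.31-fold higher. Acvrl1, or ALK1, an endothelial type I receptor, read 290 and 101 and was at least 2.85-fold lower. Of the 12 endothelial markers 7 did not exceed the floor in either array, Pecam1, Kdr and Vwf among them. The summed signal of the measured ones was 1569 and 765, to which Ptprb alone gave 1046 in wild-type. Ptprb was at least 12.3-fold lower and Flt1 at least 2.54-fold lower, whereas Erg was at least 3.78-fold higher. The SD between probe sets was 1.58 for Erg and 0.78 for Flt1 on the log2 scale. Whether endothelial cells had a part in the Acvrl1 value was not tested.

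Ligands of the receptors called here differed too. Of 7 measured TGF-β and activin ligands and inhibins 3 were lower and 0 higher, while poly-A scaling gave 1 lower and 2 higher of 8. Inhba, the activin A subunit that signals through Acvr2a, Acvr2b and Acvr1b, read 4000 in wild-type and 277 in Slc39a13-KO, 14.4-fold lower. Inhbb, the activin B subunit, read 553 and 133, 4.15-fold lower, with an SD of 2.002 on the log2 scale between 2 probe sets. Tgfb3, which binds Tgfbr2 and betaglycan, read 4899 and 2091, 2.34-fold lower. The activin subunits and the activin receptor Acvr2a were therefore both lower, whereas Tgfb3 was lower and its receptor Tgfbr2 higher.

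Among 9 measured BMP and GDF ligands 3 were higher and 2 lower. Bmp4 read 3797 in wild-type and 1136 in Slc39a13-KO, 3.34-fold lower. Gdf10, also called BMP3b, read 1123 and 8615, 7.67-fold higher. Bmp5 and Bmp2 lay below the floor in wild-type, and Bmp5 was at least 15.2-fold and Bmp2 at least 5.31-fold higher. The BMP ligands thus went in both directions while no BMP type I receptor was called.

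Secreted antagonists, which keep ligands from the receptors, were lower in 4 and higher in 2 of 11 measured genes, with a median log2 ratio of -0.88. Grem1, the BMP antagonist gremlin, read 3417 in wild-type and 640 in Slc39a13-KO, 5.34-fold lower. Sostdc1, a BMP and Wnt antagonist, was at least 4.86-fold lower and Bmper, a BMP-binding protein, 3.25-fold lower. Twsg1, which modulates the binding of BMPs to chordin, was at least 3.46-fold higher, with an SD of 0.96 on the log2 scale between 4 probe sets. Of 7 measured Smads only Smad7, the inhibitory Smad that targets the TGF-β receptor complex for degradation, was called, with 755 and 348, 2.17-fold lower.

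Regulators of receptor activity and turnover were mostly not called, with 1 higher and 3 lower of 27, beside 8.01% and 5.93% of all genes. Poly-A scaling gave 12 higher and 1 lower, where 45.8% of all genes were higher and 1.75% lower. Pmepa1, which holds back TGF-β signalling at the level of receptor-activated Smads, read 3239 in wild-type and 421 in Slc39a13-KO, 7.70-fold lower. Cav1, the caveolin that takes TGF-β receptors into caveolae, read 21644 and 5370, 4.03-fold lower. Limk1, a kinase that binds the tail of Bmpr2, was at least 2.36-fold lower. Dab2, an endocytic adaptor that binds TGF-β receptors, was at least 3.75-fold higher. Pmepa1 and Cav1 were therefore lower in the array in which Tgfbr2 and Tgfbr3 were higher.

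Target genes downstream of the receptors were also counted. Of 18 measured TGF-β targets 6 were lower and 1 higher, with a median log2 ratio of -0.59. Besides Pmepa1, the lower targets included Col3a1, a fibrillar collagen, 5.16-fold, Postn, the matrix protein periostin, 3.04-fold, and Acta2, smooth muscle actin, at least 3.06-fold. Col3a1 had an SD of 1.21 on the log2 scale between 2 probe sets. Of 16 measured BMP targets 5 were higher and 4 lower, and the median log2 ratio was 0.56. The higher ones included Bambi and the transcription factor Atoh8, 3.32-fold, and the lower ones Grem1 and the homeobox gene Msx2, at least 4.39-fold. Acta2 is also among the smooth muscle markers above, 7 of which were lower. These counts were scale-dependent: with poly-A scaling the TGF-β targets had 5 higher and 2 lower, and their median lay 0.57 below that of all genes, compared with 0.70 below it as reported. The BMP targets had 10 higher and 2 lower with that scaling, and their median lay 0.58 above that of all genes, compared with 0.45 above it as reported. Of the other lists, poly-A scaling gave 5 higher and 0 lower of 10 further receptors and co-receptors and 4 and 0 of 9 in the list of BMP and GDF ligands. It gave 2 and 2 of 12 antagonists and 5 and 0 of 8 Smads. All these poly-A counts stand beside 45.8% of all genes called higher and 1.75% called lower with that scaling.

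**Figure D4:**
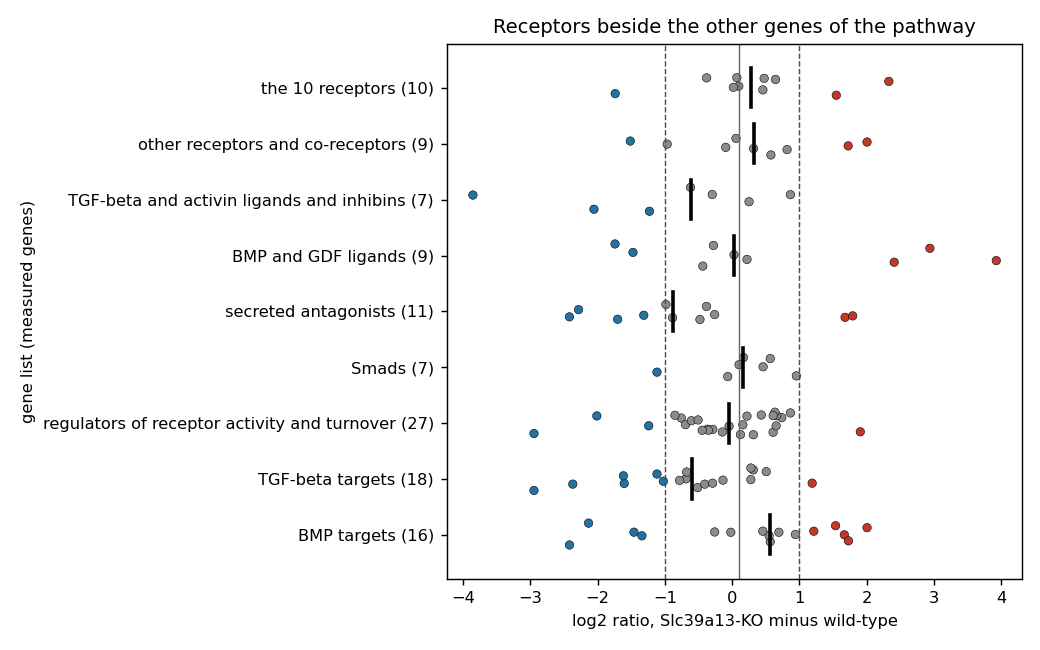
Log2 ratio (Slc39a13-KO minus wild-type) of each measured gene in the receptor list and 8 lists of related genes (number measured in brackets), with red points called higher, blue called lower and grey not called. Black bars are list medians, the grey line is the median of all genes (0.11) and the dashed lines mark 2-fold, and the lists of TGF-β ligands, antagonists, regulators and targets hold blue points beyond the lowest receptor.

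Markers of other cell types also differed between the 2 arrays. The chondrocyte marker Cnmd, an angiogenesis inhibitor of cartilage, was at least 623-fold higher in Slc39a13-KO, Col9a1 at least 106-fold and the proteoglycan Acan at least 52.4-fold. Col9a1 had an SD of 1.88 on the log2 scale between 2 probe sets. Of the smooth muscle and pericyte markers, Actg2 was 41.7-fold, Mcam at least 10.5-fold and Lmod1 3.86-fold lower. Macrophage and osteoclast markers counted 7 higher and 1 lower among 13 measured, with summed signals of 5991 and 7467. The higher ones were led by Lyz2 at 8.41-fold, Ctss at least 3.71-fold and C1qb at least 3.70-fold. The lower one was Cd53, which read 546 and 156, 3.50-fold lower. Ctsk, the largest part of both sums, read 4227 and 2956 and was not called. Ptprc and Itgam, which define leukocytes, were not measured. Of 5 measured adipocyte markers 3 were higher, with sums of 933 and 3026. These were Pparg, the adipocyte nuclear receptor, at least 10.2-fold, Fabp4 at least 6.29-fold and Plin4 6.24-fold. The other measured ones, Cebpa (381 and 332) and Lpl (199 and 152), were somewhat lower in Slc39a13-KO and not called. Adipoq, Cidec, Lep and Cd36 were not measured. Among the osteoblast markers Pth1r, the receptor of parathyroid hormone, was 5.20-fold, the matrix protein Dmp1 at least 4.50-fold and the alkaline phosphatase Alpl at least 2.32-fold higher. Dmp1 had an SD of 1.02 on the log2 scale between 3 probe sets. Sums over the list were 81331 and 85507, most of it from Sparc and Col1a2. With poly-A scaling 15 of 15 chondrocyte markers were higher, and of 11 smooth muscle and pericyte markers 2 were lower and 1 higher. Of the 42 genes named from the lists, 0 changed sign under any of the 3 other scalings, but with poly-A scaling 9 of the 21 lower ones still reached 2-fold. The part of any of these cell types in the values of Tgfbr2, Tgfbr3 and Acvr2a was not tested.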

How the data were processed

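Primary osteoblast RNA from wild-type and Slc39a13-KO mice was read on 1 Affymetrix array each. The deposited values are linear signal intensities that the authors computed per probe set by MAS5 as the submitters' processing notes name it. The version was not given in the sources used here. For its own analysis the study names gcRMA. The 2% trimmed mean was 500.003 in both arrays, as MAS5 scaling gives, and such scaling hides any difference in mRNA content per cell.

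Of 45101 probe sets, 64 were controls, 34945 had 1 gene symbol, 932 several and 9160 none. Those with 1 symbol were used, and 34741 (99.4%) of them matched the RefSeq gene table of GRCm38.p6 by gene ID. Signals below the 50th percentile of the pooled values (85.1) were raised to it and log2 was taken. Median signals were 78.2 and 92.6 in wild-type and Slc39a13-KO, and 48.2% and 51.8% of the probe sets exceeded the floor. Depth does not apply to arrays, and their number limits the precision. The 3′ to 5′ signal ratios of Gapdh were 0.796 and 0.752.

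Calls needed a 2-fold mean, the threshold of the study, and the same sign in all measured probe sets. No p-value was computed. Calculations used Python 3.11.15, pandas 2.3.3 and numpy 2.4.6. The calling step was run on simulated data, with changed genes well above the floor and noise taken from the spread between probe sets. That run covered neither changed genes near the floor nor variation between cultures or arrays. The named genes are the 10 receptors, Slc39a13, and from each list the called genes with the largest absolute ratios, at most 4 for a pathway list and at most 3 for a marker list. Osteoblast and adipocyte markers that were not called or not measured were named besides, after their values were seen. So were Ptprc, Itgam, Cd53, Ctsk, Pecam1, Kdr and Vwf. The receptors and lists were chosen with earlier results of these data known. Alternatives were 3 other scalings, 3 other floors, 3 other ways to treat the probe sets of a gene, and calls without the rule on the sign.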

Additional observations from a re-analysis of the deposited data

How the results depend on the processing

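The receptor counts of 2 higher and 1 lower were recomputed under 10 alternatives. Scaling on the poly-A controls gave 4 higher and 0 lower, where 45.8% of all genes were called higher and 1.75% lower. The receptor median was then 0.92, as this scaling raised the median of all genes to 0.94. A floor at the 30th percentile gave 3 higher, with Acvr2b added, and 2 lower, with Bmpr1b added. The shares of all genes rose with this floor as well, to 10.3% higher and 6.54% lower. Removing the floor gave 4 higher and 2 lower, where 16.9% of all genes were higher and 11.3% lower. The genes added without the floor were Acvr1b and Acvr2b higher and Bmpr1b lower, all of which include probe sets below the floor. Quantile and median scaling, the floor at the 70th percentile, the brightest probe set, the median over probe sets, leaving out probe sets that may cross-hybridise, and dropping the rule on the sign gave the same counts. Over 9 alternatives Tgfbr2 ranged from 1.55 to 3.31, Tgfbr3 from 1.37 to 2.28 and Acvr2a from -1.98 to -0.72, and 0 called receptors changed sign. At the 70th percentile floor 8 of the 10 receptors were measured. Of all called genes 57.5% were higher as reported, compared with 38.3% under median scaling, 47.5% under quantile normalization and 96.3% under poly-A scaling. No paired analysis was possible because each genotype had 1 array.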
